A study of Mus musculus with 8 samples.

Results

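The circadian clock genes Per1, Per2, Per3, Cry1, Cry2, Clock, Nr1d1, Nr1d2, Bhlhe40 and Bhlhe41 were followed in Lewis lung carcinoma (LLC) cells that differed in FIH and in oxygen. These 10 genes were picked by symbol from the 53700 genes of the count table. All 10 were among the 13933 genes that passed the filter on low counts, and each was read in every library. LLC is a mouse lung carcinoma line, and FIH, encoded by Hif1an, is the oxygen-dependent asparagine hydroxylase that restrains the transcriptional activity of the hypoxia-inducible factors (HIFs). RNA-Seq was performed on 4 groups with 2 libraries each. They were WT cells in normoxia (21% O2), WT cells in hypoxia (1% O2), FIH-KO cells in normoxia and FIH-KO cells in hypoxia, each cultured for 16 hours in serum-containing medium without further treatment. The FIH-KO line was made with CRISPR/Cas9 against Hif1an and single-cell dilution, so genotype and clone cannot be told apart. The labels give no hour of harvest and no step that aligns the rhythms of the cells, and each value is therefore the level of a whole culture at 1 time point. They also do not say whether the 2 libraries of a group came from separate cultures, so the p values measure only the spread between these libraries.

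The mammalian clock is a transcriptional loop in which CLOCK and BMAL1 (Arntl) bind E-box sequences and switch on the Per and Cry genes, whose proteins return to the nucleus and repress CLOCK and BMAL1. A second loop joins it, in which the nuclear receptors NR1D1 and NR1D2 (REV-ERB alpha and beta) repress Arntl and the ROR receptors activate it, and BHLHE40 and BHLHE41 (DEC1 and DEC2) repress from E-boxes. The HIF subunits belong to the same bHLH-PAS protein family as CLOCK and BMAL1 and bind a hypoxia response element (HRE) whose core shares letters with the E-box.

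Stretches of DNA just before the transcription start are shown for the clock genes with an exact E-box or D-box within 300 bases, because these are the elements through which the loop and its output factors act. Bhlhe41 is shown beside its paralog Bhlhe40. Of the elements marked here, Bhlhe41 holds an HRE core alone within these 300 bases, as do Clock and Nr1d2, which are not shown. The sequence is from GRCm39, starts are those of the canonical GENCODE transcripts, and each stretch is written 5′ to 3′ on the gene's strand. Capitals mark the E-box (CACGTG), its variant the E-prime box (CACGTT), the D-box (TTATGTAA) and the HRE cores (ACGTG and GCGTG), each read on either strand. Every E-box and E-prime box also holds an ACGTG core, so those matches overlap. The stretches lie at chr6:108636381-108636440 (plus strand) for Bhlhe40, chr6:145811474-145811533 (minus) for Bhlhe41, chr11:68989208-68989267 (plus) for Per1, chr10:85020971-85021000 (minus) for Cry1, chr1:91387137-91387196 (minus) for Per2 and chr4:151129261-151129340 (minus) for Per3.
Bhlhe40: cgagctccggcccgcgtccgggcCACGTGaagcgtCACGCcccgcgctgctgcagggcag
Bhlhe41: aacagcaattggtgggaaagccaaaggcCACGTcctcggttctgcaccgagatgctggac
Per1: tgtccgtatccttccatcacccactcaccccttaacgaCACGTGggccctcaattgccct
Cry1: agaAACGTGaggtgccggtggtCACGTGgg
Per2: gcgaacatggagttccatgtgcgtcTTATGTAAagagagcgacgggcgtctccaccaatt
Per3: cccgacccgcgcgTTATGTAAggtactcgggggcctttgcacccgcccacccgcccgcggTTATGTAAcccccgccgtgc
The Per1 stretch lies in an intron of longer Per1 transcripts and the Cry1 stretch in an untranslated part of an exon of another Cry1 transcript. The Bhlhe40 stretch overlaps exons of the lncRNAs Gm17055 and 0610040F04Rik, and the Bhlhe41 and Per3 stretches overlap exons of the antisense lncRNAs Gm67129 and Gm69444. An exact E-box was found before 3 of the 10 genes (Per1, Cry1 and Bhlhe40) and in 8.77% of the 11622 windows of this length before tested protein-coding genes. The E-prime box was found before 3 (Cry1, Cry2 and Nr1d1), against 6.24% of all windows. The D-box was found before 2, Per2 and Per3, against 0.637%. An HRE core of either kind was found before 9 of 10, all but Per2, against 58.5%. The cAMP response element (TGACGTCA) was found before 0 of 10 (2.22% of all windows), its core TGACG, which lies within it, before 2 (26.5%), and the nuclear receptor motif AGGTCA before 1 (13.3%). Over 1000 bases an HRE core of either kind was found before 10 of 10, Per2 included, against 82.6% of windows. In that longer window TGACG and AGGTCA were each found before 6, against 45.0% and 45.1%. These matches describe letters in a window and say nothing of binding.

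The libraries held between 14519731 and 18177016 counted reads. Hif1an, the targeted gene, had between 584 and 784 reads in the FIH-KO libraries and between 1231 and 1609 in the WT libraries, with log2 fold changes of -1.20 in normoxia and -0.85 in hypoxia (edgeR adjusted p = 3.09e-05 and 0.000314), and the edit itself is not visible in gene counts. Of 12 HIF targets used as a check of the oxygen labels, 12 rose in hypoxia in WT cells and 11 in FIH-KO cells. The libraries held between 46720 and 93218 reads of Vim and between 1521 and 5579 of Krt8, whereas Epcam was at 0 in every library, Cdh1 had at most 1 read and no lung epithelial marker had more than 11. Ptprc, the pan-leukocyte marker, had at most 3 reads and Cd3e had 0, while 1 of the 6 leukocyte genes, Lyz2, was higher in FIH-KO cells in both oxygen conditions. The summed level of the leukocyte list was between 2.96 and 6.55 CPM (counts-per-million) in WT libraries and between 8.14 and 10.3 in FIH-KO libraries. Nearly all of this sum came from Cd68 and Lyz2. Cd68 had means of 2.92 CPM in WT normoxia, 5.63 in WT hypoxia, 4.75 in FIH-KO normoxia and 5.15 in FIH-KO hypoxia, and Lyz2 had 0.395, 0.236, 5.44 and 3.41. The 7 mesenchymal markers summed to between 4360 and 5969 in WT and between 8200 and 11000 in FIH-KO libraries, with Vim, Fn1 and Acta2 higher in FIH-KO cells in both conditions. The epithelial marker Krt8 had means of 150 CPM in WT and 305 in FIH-KO normoxia, and 122 and 244 in hypoxia. In each condition 3 of 6 tested mesenchymal and 1 of 3 tested general epithelial markers were higher in FIH-KO cells and 0 lower. Over all tested genes 15.2% were higher in normoxia and 14.1% in hypoxia (edgeR adjusted p under 0.05). The part of these marker differences in the results below was not tested. In bulk RNA, fewer cells that express a gene and less RNA per cell cannot be told apart.

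With all libraries in the fit, hypoxia raised most of the 10 clock genes in either genotype. In normoxia the Per genes and Cry2 were then higher in FIH-KO than in WT cells. Several of these calls rest on single libraries, as given for each gene below. They are the hypoxia calls of Per1, Cry2 and Clock in FIH-KO cells and the normoxia genotype calls of Per1, Per3 and Cry2. With only the 4 libraries of the comparison, 3 of the 10 were called for hypoxia in FIH-KO cells. Levels are given in CPM scaled with TMM factors, fold changes as log2 values with their standard error (SE), and a gene is called where its Benjamini-Hochberg adjusted p over all tested genes is under 0.05 in edgeR's quasi-likelihood test. In WT cells, 7 of the 10 clock genes rose in hypoxia and 0 fell. Over all tested genes, 32.4% were called in this comparison, 16.9% higher and 15.5% lower. In FIH-KO cells, 6 of 10 rose in hypoxia and 0 fell, beside 16.8% called over all genes, 8.84% higher and 8% lower. The median log2 fold change of the 10 genes was 1.13 for WT and 0.44 for FIH-KO cells, beside -0.001 and -0.027 over all tested genes. In normoxia, 4 of 10 were higher in FIH-KO than in WT cells and 0 lower, beside 28.2% called over all genes, 15.2% higher and 13% lower. In hypoxia, 1 was higher and 1 lower, beside 28% called, 14.1% higher and 13.9% lower. The medians of the 10 genes were 0.38 in normoxia and -0.26 in hypoxia, against -0.003 and -0.032 over all tested genes. The genotype and the oxygen comparisons share libraries with each other, the WT normoxia libraries among them, so their values are set side by side and not as independent results.

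**Figure D1:**
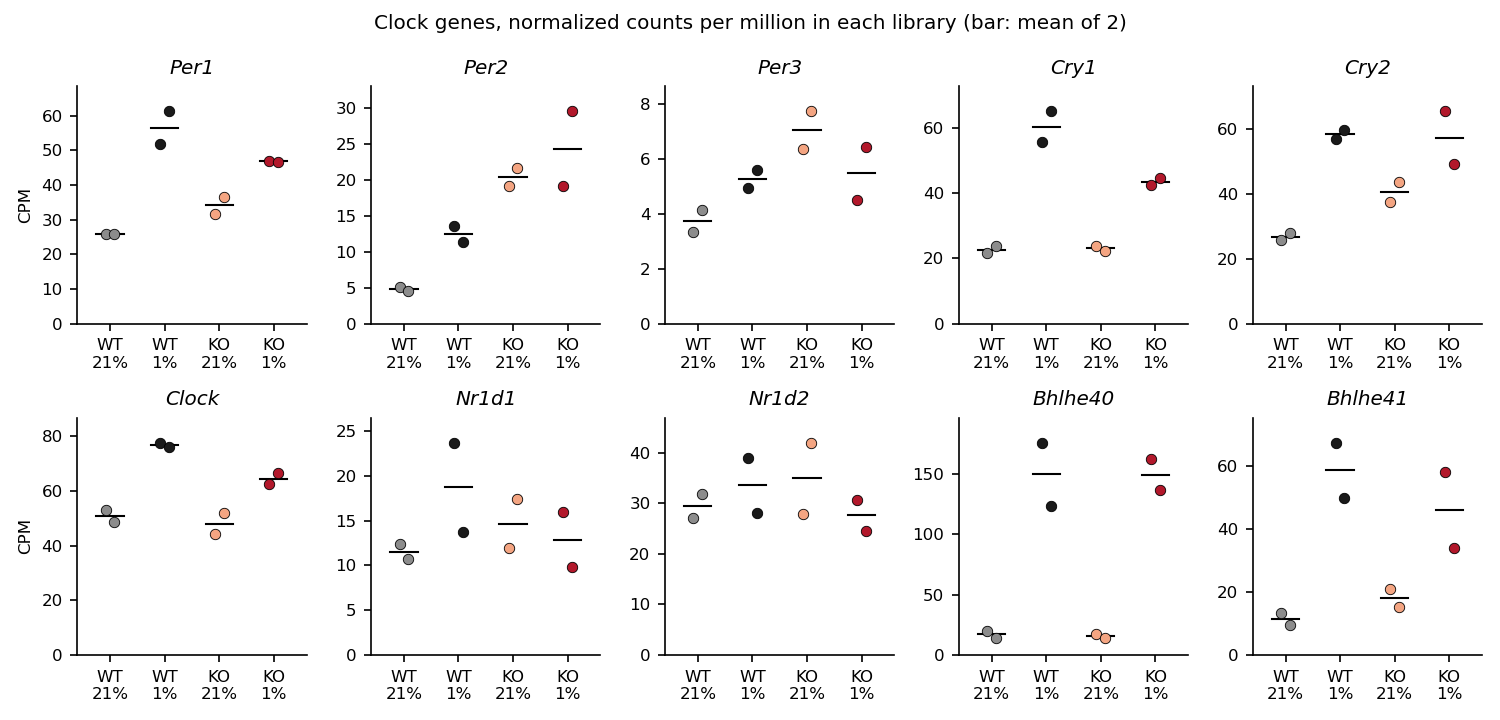
Normalized counts-per-million (CPM, vertical axis, each panel from 0) of the 10 clock genes in each library, with WT and FIH-KO (KO) cells at 21% or 1% O2 on the horizontal axis, points for libraries and bars for the mean of 2. Bhlhe40 stood between 13.7 and 19.9 CPM in the 4 normoxia libraries and between 124 and 176 in the 4 hypoxia libraries, Per2 stood lowest in WT normoxia, and the Nr1d2 groups overlapped throughout.

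The largest responses among the 10 genes were those of Bhlhe40 and Bhlhe41, the paired E-box repressors. Bhlhe40 (ENSMUSG00000030103.12, chr6:108636626-108644502, plus strand) was at 19.9 and 14.2 CPM in WT normoxia, 176 and 124 in WT hypoxia, 17.3 and 13.7 in FIH-KO normoxia, and 162 and 137 in FIH-KO hypoxia. Every hypoxia library lay far above every normoxia library, and the genotypes overlapped at each oxygen level. The rise was 8.82-fold in WT cells (log2 3.14, SE 0.207, edgeR adjusted p = 2.32e-06) and 9.63-fold in FIH-KO cells (log2 3.27, SE 0.208, edgeR adjusted p = 1.89e-06). The FIH-KO to WT difference had a 95% interval of -0.59 to 0.33 (log2) in normoxia, and its interval in hypoxia was -0.40 to 0.40. Bhlhe41 (ENSMUSG00000030256.12, chr6:145803969-145811430, minus strand) was at 13.4 and 9.60 CPM in WT normoxia, 67.2 and 49.9 in WT hypoxia, 20.8 and 15.1 in FIH-KO normoxia, and 58.0 and 34.0 in FIH-KO hypoxia. Its hypoxia and normoxia libraries did not overlap in either genotype, and in normoxia both FIH-KO libraries lay above both WT libraries. Hypoxia raised Bhlhe41 5.10-fold in WT cells (log2 2.35, SE 0.269, edgeR adjusted p = 8.62e-05) and 2.57-fold in FIH-KO cells (log2 1.36, SE 0.258, edgeR adjusted p = 0.00425). The higher level in FIH-KO normoxia missed the threshold (log2 0.64, SE 0.272, edgeR adjusted p = 0.0994), although it was called in 4 of 7 alternatives, DESeq2 among them (adjusted p = 0.0489), and in 2 of 8 fits without a library. The oxygen response of both genes was called without each library in turn. In each of the 4 groups replicate 1 held more Bhlhe40 and Bhlhe41 than replicate 2, and the summed CPM of the 12 HIF targets was also higher in replicate 1 of each group (5582 and 3901 in FIH-KO hypoxia, 3850 and 3365 in WT hypoxia, 991 and 786 in FIH-KO normoxia, 733 and 650 in WT normoxia). What part this plays in the spread of Bhlhe40 and Bhlhe41 was not tested.

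Per1, Per2 and Per3 encode the PERIOD proteins, which assemble with the cryptochromes into the repressor complex. Per2 (ENSMUSG00000055866.10, chr1:91343700-91387069, minus strand) was at 5.14 and 4.50 CPM in WT normoxia, 13.5 and 11.4 in WT hypoxia, 19.2 and 21.6 in FIH-KO normoxia, and 19.2 and 29.5 in FIH-KO hypoxia. Every FIH-KO library was above every WT library, and the 2 oxygen conditions overlapped in FIH-KO cells. FIH-KO cells held 4.23-fold more Per2 in normoxia (log2 2.08, SE 0.229, edgeR adjusted p = 7.17e-05) and 1.95-fold more in hypoxia (log2 0.96, SE 0.21, edgeR adjusted p = 0.00537). In WT cells hypoxia raised Per2 2.59-fold (log2 1.37, SE 0.233, edgeR adjusted p = 0.00106). In FIH-KO cells the difference was 0.25 (95% interval -0.19 to 0.70, edgeR adjusted p = 0.44). The normoxia call held without each library in turn. The hypoxia call of genotype was lost without WT hypoxia replicate 2 (log2 0.85, edgeR adjusted p = 0.0528), and its size fell to 0.62 without FIH-KO hypoxia replicate 2.

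Per1 (ENSMUSG00000020893.18, chr11:68986035-69002300, plus strand), the Per gene with the E-box shown above, followed oxygen in both genotypes. It was at 26.0 and 25.8 CPM in WT normoxia, 51.8 and 61.2 in WT hypoxia, 31.7 and 36.7 in FIH-KO normoxia, and 47.0 and 46.7 in FIH-KO hypoxia. None of its groups overlapped, and the order from low to high was WT normoxia, FIH-KO normoxia, FIH-KO hypoxia and WT hypoxia. The rise in hypoxia was 2.18-fold in WT cells (log2 1.13, SE 0.135, edgeR adjusted p = 0.000117) and 1.37-fold in FIH-KO cells (log2 0.45, SE 0.133, edgeR adjusted p = 0.0353). In normoxia FIH-KO cells held 1.32-fold more Per1 (log2 0.40, SE 0.135, edgeR adjusted p = 0.0428), and in hypoxia the difference was -0.27 (SE 0.131, edgeR adjusted p = 0.148). The genotype call in normoxia was lost with DESeq2 (adjusted p = 0.0532), without a filter on low counts (0.0518) and without any of 5 libraries, the 4 normoxia ones and WT hypoxia replicate 1 (edgeR adjusted p between 0.0604 and 0.263). The call in FIH-KO cells was lost without any of 5 libraries, all but FIH-KO normoxia replicate 2 and the 2 WT hypoxia ones (edgeR adjusted p between 0.06 and 0.189).

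Per3 (ENSMUSG00000028957.13, chr4:151081373-151129140, minus strand) was the lowest of the 10 genes, with between 52 and 138 reads a library. It was at 3.34 and 4.15 CPM in WT normoxia, 4.93 and 5.60 in WT hypoxia, 6.37 and 7.72 in FIH-KO normoxia, and 4.50 and 6.44 in FIH-KO hypoxia. Only the normoxia comparison of genotype was called, with 1.88-fold more Per3 in FIH-KO cells (log2 0.91, SE 0.262, edgeR adjusted p = 0.0219). That call was lost without any one of the 4 normoxia libraries (edgeR adjusted p between 0.0535 and 0.189). The hypoxia difference was 0.49 in WT cells (95% interval -0.10 to 1.07) and -0.37 in FIH-KO cells (95% interval -0.92 to 0.19).

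Cry1 and Cry2 encode the cryptochromes, the main repressors of CLOCK and BMAL1. Cry1 (ENSMUSG00000020038.11, chr10:84967560-85021252, minus strand) was at 21.5 and 23.7 CPM in WT normoxia, 55.5 and 65.0 in WT hypoxia, 23.9 and 22.2 in FIH-KO normoxia, and 42.4 and 44.6 in FIH-KO hypoxia. The genotypes overlapped in normoxia, and in hypoxia both WT libraries lay above both FIH-KO libraries. Cry1 rose 2.67-fold in WT cells (log2 1.42, SE 0.135, edgeR adjusted p = 2.74e-05) and 1.89-fold in FIH-KO cells (log2 0.92, SE 0.135, edgeR adjusted p = 9e-04), calls that held without each library in turn. Cry1 was the only one of the 10 genes called lower in FIH-KO than in WT cells in hypoxia (log2 -0.47, SE 0.131, edgeR adjusted p = 0.0189). That call was lost without WT hypoxia replicate 2 (edgeR adjusted p = 0.157), without FIH-KO hypoxia replicate 1 (0.0871) and in a fit of the 4 hypoxia libraries alone (0.0543). Cry2 (ENSMUSG00000068742.12, chr2:92233894-92264474, minus strand) was at 25.6 and 27.7 CPM in WT normoxia, 56.9 and 59.6 in WT hypoxia, 37.3 and 43.6 in FIH-KO normoxia, and 65.3 and 49.1 in FIH-KO hypoxia. The genotypes did not overlap in normoxia and overlapped in hypoxia. Cry2 rose 2.18-fold in hypoxia in WT cells (log2 1.13, SE 0.153, edgeR adjusted p = 0.000262) and 1.41-fold in FIH-KO cells (log2 0.50, SE 0.15, edgeR adjusted p = 0.039), and in normoxia FIH-KO cells held 1.52-fold more of it than WT cells (log2 0.60, SE 0.153, edgeR adjusted p = 0.0119). The response in WT cells was called without each library in turn, whereas that in FIH-KO cells was called in only 1 of 8 such fits, the one without FIH-KO hypoxia replicate 2, and the normoxia call of genotype was lost without FIH-KO normoxia replicate 2, WT normoxia replicate 1 or WT normoxia replicate 2 (edgeR adjusted p = 0.0905, 0.127 and 0.0614).

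Clock (ENSMUSG00000029238.12, chr5:76342860-76452846, minus strand), which encodes the activating partner of BMAL1, moved less. It was at 53.0 and 48.6 CPM in WT normoxia, 77.6 and 76.3 in WT hypoxia, 44.1 and 52.1 in FIH-KO normoxia, and 62.5 and 66.7 in FIH-KO hypoxia. The hypoxia libraries lay above the normoxia libraries in both genotypes. The rise was 1.52-fold in WT cells (log2 0.60, SE 0.121, edgeR adjusted p = 0.00296) and 1.34-fold in FIH-KO cells (log2 0.42, SE 0.121, edgeR adjusted p = 0.0321), and neither genotype comparison was called. Without WT normoxia replicate 2 the WT call was lost (edgeR adjusted p = 0.0675). The FIH-KO call was lost without FIH-KO hypoxia replicate 2, FIH-KO normoxia replicate 1, WT hypoxia replicate 2 or either WT normoxia library (edgeR adjusted p between 0.052 and 0.187). Of the 17251 exon bases of Clock, 2047 are shared with Tmem165 on the opposite strand, and the strand setting of the counting is not given in the sources used here.

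Nr1d1 and Nr1d2 encode REV-ERB alpha and beta, the repressors of Arntl, and neither was called in any comparison. Nr1d1 (ENSMUSG00000020889.12, chr11:98658752-98666188, minus strand) was at 12.3 and 10.7 CPM in WT normoxia, 23.7 and 13.7 in WT hypoxia, 12.0 and 17.4 in FIH-KO normoxia, and 15.9 and 9.76 in FIH-KO hypoxia. Its groups did not overlap between the oxygen conditions of WT cells (log2 0.71, SE 0.289, edgeR adjusted p = 0.0806) and overlapped in the other 3 comparisons. That difference was called in 2 of 7 alternatives, a fit of the 4 WT libraries alone (adjusted p = 0.0236) and one without a filter on low counts (0.00457), and in 2 of 8 fits without a library, over which it ran from 0.219 without WT hypoxia replicate 1 to 1.04 without WT hypoxia replicate 2. Nr1d1 shares 1694 of its 3242 exon bases with Thra on the opposite strand, so without the strand setting the reads of the 2 genes cannot be told apart there. Nr1d2 (ENSMUSG00000021775.12, chr14:4230545-4266624, plus strand) was at 27.1 and 31.8 CPM in WT normoxia, 39.0 and 28.1 in WT hypoxia, 27.9 and 41.9 in FIH-KO normoxia, and 30.7 and 24.5 in FIH-KO hypoxia. The 4 groups of Nr1d2 overlapped in all 4 comparisons, with log2 fold changes between -0.34 and 0.25 and edgeR adjusted p values between 0.306 and 0.526.

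**Figure D2:**
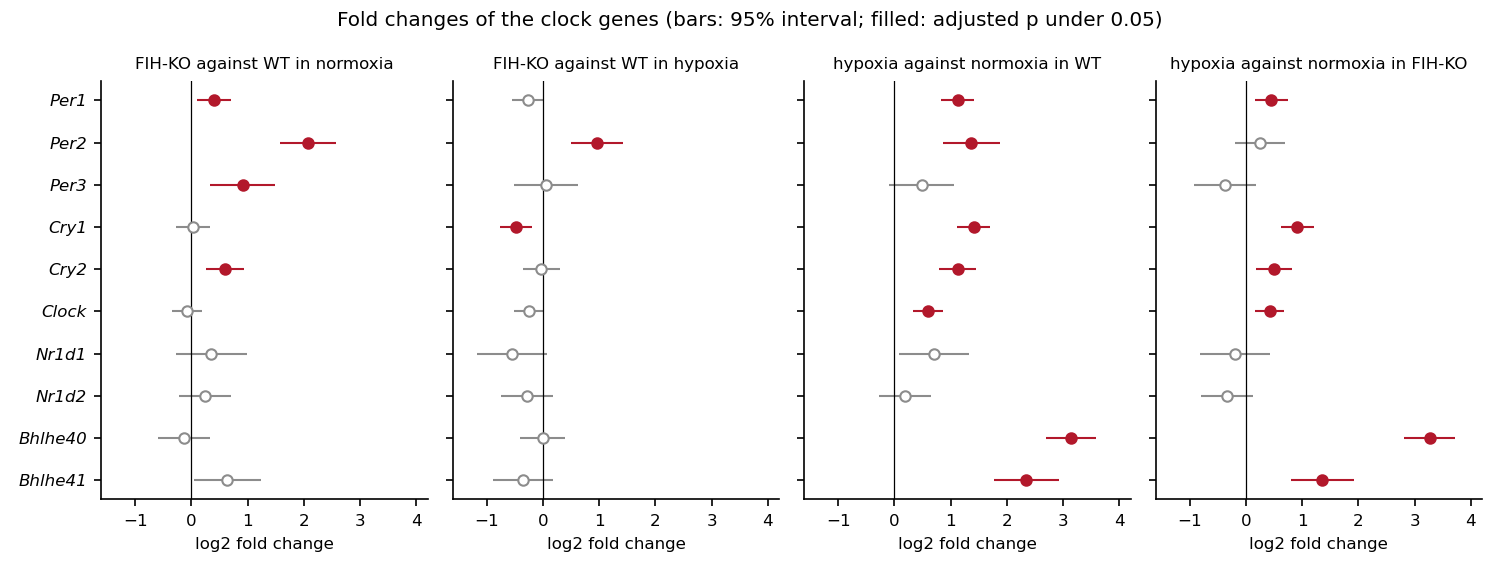
Log2 fold change (horizontal axis) of each clock gene in the 4 comparisons, with points for the edgeR estimate, bars for its 95% interval and filled red points for an adjusted p under 0.05. In hypoxia against normoxia 7 points are filled in WT and 6 in FIH-KO cells, led by Bhlhe40 at 3.14 and 3.27, and Per2 at 2.08 is the largest difference of FIH-KO against WT cells in normoxia.

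The order of the genes also depended on oxygen when levels were set per length (CPM per kilobase of exon, FPKM, mean ± SD, n = 2). The length is that of all annotated exons of a gene together, so the order between genes depends on the annotation. The exon overlaps of Nr1d1 and Clock given above apply here too. In WT normoxia Cry1 was highest at 4.54 ± 0.317 FPKM. Below it came Nr1d1 at 3.55 ± 0.366, Per1 at 3.38 ± 0.0125, Nr1d2 at 3.25 ± 0.362, Cry2 at 3.10 ± 0.177, Clock at 2.94 ± 0.180 and Bhlhe40 at 2.68 ± 0.634, each within the spread of the next. Bhlhe41 at 1.61 ± 0.379, Per2 at 0.734 ± 0.0688 and Per3 at 0.357 ± 0.0543 followed, each apart from the gene above it by more than the sum of their SDs. In WT hypoxia Bhlhe40 was highest at 23.6 ± 5.79 FPKM, ahead of Cry1 at 12.1 ± 1.34. In FIH-KO hypoxia Bhlhe40 stood at 23.5 ± 2.88 and Cry1 at 8.74 ± 0.309. Per3 stayed lowest in each of the 4 groups, with at most 0.672 ± 0.0912 FPKM, in FIH-KO normoxia.

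Whether FIH-KO cells respond to hypoxia differently was tested directly, as the hypoxia effect in FIH-KO cells minus that in WT cells. With edgeR the difference was called for 0 of the 10 clock genes and for 0% of the 13933 tested genes. An unadjusted p under 0.05 was reached by 7 of the 10, Per1, Per2, Per3, Cry1, Cry2, Nr1d1 and Bhlhe41, and by 925 of all tested genes (6.64%). DESeq2 called 0 of the 10 and 40 of all genes, with unadjusted p under 0.05 for 6 of the 10 and for 705 of all genes. The estimate was below 0 for 9 of the 10 clock genes, a smaller rise or a fall in FIH-KO cells, and for 52.4% of all tested genes. The median was -0.65 for the clock genes and -0.019 for all tested genes. These 2 sets are unlike, because the estimate subtracts the WT hypoxia effect, with a median of 1.13 for the clock genes and -0.001 for all tested genes. The 12 HIF targets, which also rose with hypoxia in WT cells, had a median estimate of 0.17, but went in both directions. Vegfa rose less in FIH-KO cells, with means from 72.8 to 285 CPM against 31.6 to 267 in WT cells. Pdk1 rose more in FIH-KO cells, from 60.0 to 512 CPM against 87.0 to 328 in WT cells. The estimates were -1.12 for Per2 (95% interval -1.79 to -0.44, edgeR unadjusted p = 0.00351, adjusted p = 0.46), -0.67 for Per1 (-1.08 to -0.26, unadjusted p = 0.0038, adjusted p = 0.465) and -0.99 for Bhlhe41 (-1.79 to -0.19, unadjusted p = 0.0191, adjusted p = 0.631). For Bhlhe40 the estimate was 0.13 (95% interval -0.48 to 0.74). Genes outside the 10, taken up below, also had estimates on both sides of 0. Dusp1 had -1.54 (edgeR unadjusted p = 0.000214, adjusted p = 0.188) and Nampt 0.31 (unadjusted p = 0.103, adjusted p = 0.796). The medians were -0.23 for the clock output genes, -0.25 for the genes of signals that act on Per1 and Per2, and 0.007 for the modifiers of the clock proteins. Without a filter on low counts edgeR called 143 of 25720 genes, Per2 (adjusted p = 0.033) and Bhlhe41 (adjusted p = 0.0136) among them.

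**Figure D3:**
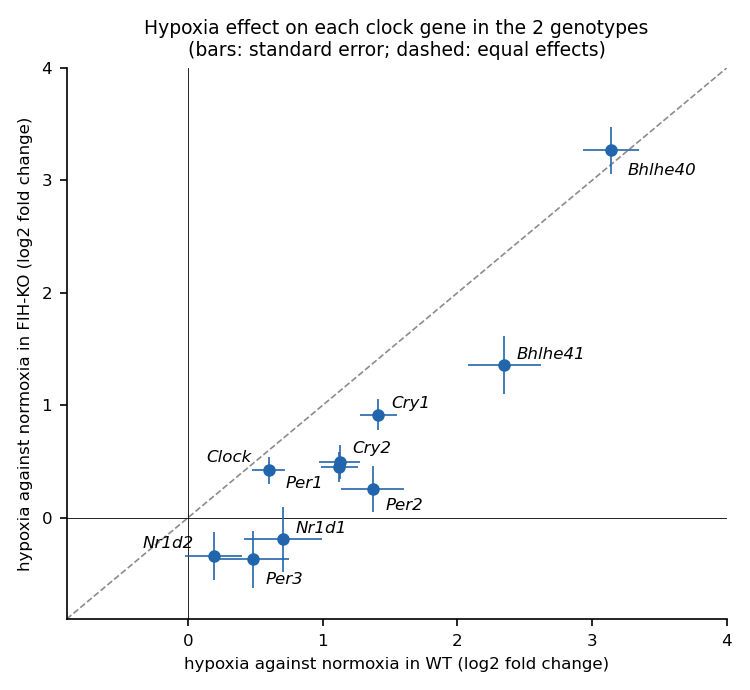
Log2 fold change of hypoxia against normoxia in WT cells (horizontal axis) and in FIH-KO cells (vertical axis) for each clock gene, with bars for the standard error and a dashed line where both are equal. Bhlhe40 lies on the line within its error, at 3.14 and 3.27, the other 9 genes lie below it, and 0 of the 10 differences passed the adjusted test.

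The rest of the core loop was read in the same libraries through 7 genes, of which 4 passed the filter. Arntl, the gene of BMAL1, was at 25.7 and 20.2 CPM in WT normoxia, 36.4 and 32.7 in WT hypoxia, 22.6 and 22.4 in FIH-KO normoxia, and 37.4 and 38.3 in FIH-KO hypoxia. It rose with hypoxia in both genotypes (log2 0.59, SE 0.148, edgeR adjusted p = 0.00965 in WT, and log2 0.75, SE 0.147, edgeR adjusted p = 0.00525 in FIH-KO), like its partner Clock. Ciart, which encodes the E-box repressor CHRONO, was at 1.67 and 1.84 CPM in WT normoxia, 38.3 and 26.6 in WT hypoxia, 0.893 and 1.01 in FIH-KO normoxia, and 16.7 and 14.5 in FIH-KO hypoxia. Its rise was 18.4-fold in WT cells (edgeR adjusted p = 2.03e-06) and 16.3-fold in FIH-KO cells (edgeR adjusted p = 2.89e-06), larger than that of any of the 10 clock genes, and in hypoxia it was lower in FIH-KO than in WT cells (log2 -1.06, SE 0.198, edgeR adjusted p = 0.00216). The downstream pair of the 3 E-boxes in the window before Ciart lie in a stretch at chr3:95789574-95789603 (minus strand), in an intron of a longer Ciart transcript, shown here with E-boxes in capitals.
Ciart: ggaggCACGTGcagaaccgCACGTGtctgg
Rora, the gene of the activator that opposes the REV-ERBs, had 0 and 0 reads in WT normoxia, 117 and 77 in WT hypoxia, 0 and 2 in FIH-KO normoxia, and 47 and 29 in FIH-KO hypoxia. Against a floor of 3 counts per library the WT rise was at least 31.9-fold, and in hypoxia Rora was lower in FIH-KO than in WT cells (log2 -1.29, SE 0.367, edgeR adjusted p = 0.0228). Arntl2, the gene of BMAL2, was not called in any comparison (11.8 to 20.1 CPM). Npas2, the paralog of Clock, had 0 reads in every library, and Rorb, a paralog of Rora, had at most 2.

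The PAR bZIP factors DBP, TEF and HLF activate D-box genes and NFIL3 represses them. Dbp was at 2.12 and 2.67 CPM in WT normoxia, 3.87 and 3.76 in WT hypoxia, 9.29 and 7.28 in FIH-KO normoxia, and 8.74 and 8.98 in FIH-KO hypoxia. Tef was at 24.0 and 25.6, 19.3 and 15.97, 60.8 and 67.3, and 34.7 and 43.0 CPM in the same order of groups. As for Per2, every FIH-KO library lay above every WT library for both genes. The differences of FIH-KO against WT cells were 1.78 for Dbp and 1.37 for Tef in normoxia (log2, SE 0.249 and 0.15, edgeR adjusted p = 0.00035 and 6.88e-05) and 1.22 and 1.14 in hypoxia (SE 0.237 and 0.154, edgeR adjusted p = 0.00276 and 0.000314). Tef fell with hypoxia by 0.49 in WT and by 0.72 in FIH-KO cells on the log2 scale (edgeR adjusted p = 0.0304 and 0.00622). The window of 300 bases before Tef also holds 1 exact E-box, at bases -138 to -133 from the start, in a stretch that is not shown. Nfil3 was at 18.6 and 14.3 CPM in WT normoxia, 86.4 and 70.9 in WT hypoxia, 15.0 and 13.1 in FIH-KO normoxia, and 53.3 and 34.9 in FIH-KO hypoxia. Hypoxia raised Nfil3 by 2.26 in WT and by 1.65 in FIH-KO cells (log2, SE 0.208 and 0.209, edgeR adjusted p = 2.13e-05 and 0.000357), to a level that was lower in FIH-KO cells (log2 -0.83, SE 0.195, edgeR adjusted p = 0.00784). Hlf had at most 1 read. Dbp shares 539 exon bases with Sphk2 on the opposite strand.

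**Figure D4:**
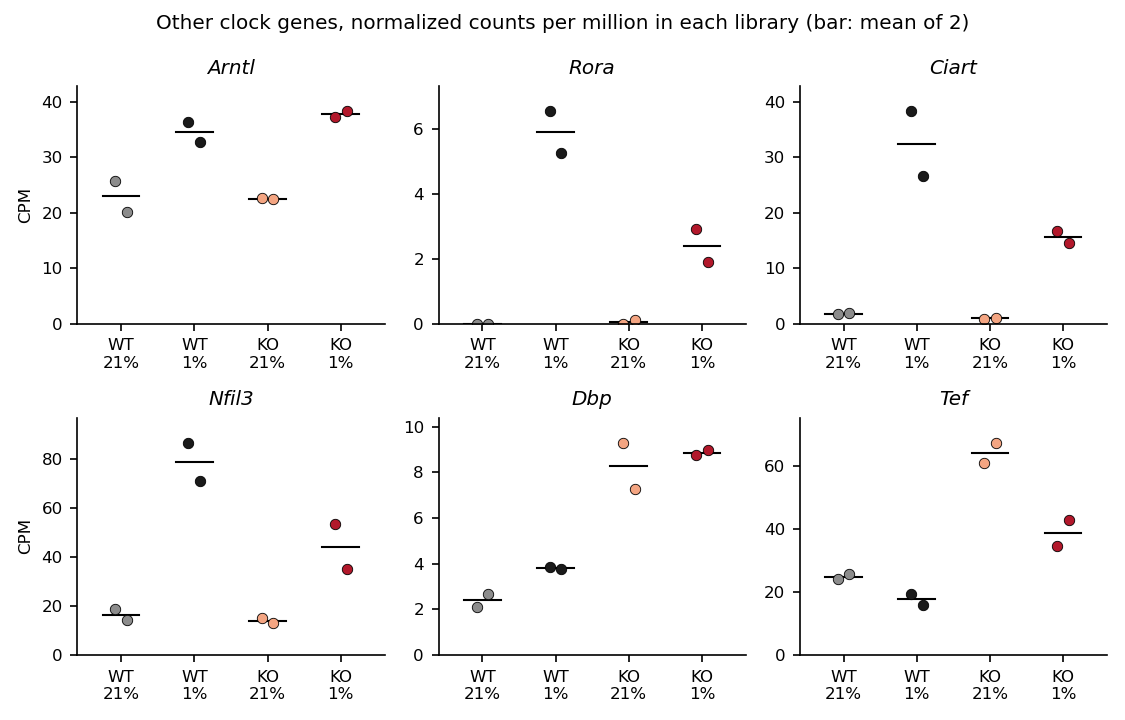
Normalized counts-per-million (CPM, vertical axis, each panel from 0) in each library of 6 clock genes outside the 10, with WT and FIH-KO (KO) cells at 21% or 1% O2 on the horizontal axis, points for libraries and bars for the mean of 2. Rora, Ciart and Nfil3 were higher in every hypoxia library than in any normoxia library and, in hypoxia, higher in WT than in FIH-KO cells, while Dbp and Tef were higher in every FIH-KO library than in any WT library.

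Counted in either direction, modifiers of the clock proteins were called no more often than tested genes as a whole. The calls went in both directions, except between genotypes in hypoxia. Of 24 tested genes for kinases, ubiquitin ligases and other modifiers of the PER, CRY and CLOCK proteins, 3 rose and 3 fell with hypoxia in WT cells, and 1 rose and 2 fell in FIH-KO cells, beside 32.4% and 16.8% called in either direction over all tested genes. Between genotypes 1 was higher and 4 lower in FIH-KO cells in normoxia, and 0 were higher and 6 lower in hypoxia, beside 28.2% and 28% called over all genes. By direction, all tested genes were 15.2% higher and 13% lower in normoxia, and 14.1% higher and 13.9% lower in hypoxia. Parp1, which modifies CLOCK, fell with hypoxia in WT cells (log2 -0.80, SE 0.114, edgeR adjusted p = 0.000363) and was lower in FIH-KO cells in normoxia (log2 -0.73, SE 0.114, edgeR adjusted p = 0.000719). It also fell with hypoxia in FIH-KO cells (log2 -0.73, SE 0.115, edgeR adjusted p = 0.00137) and was lower in FIH-KO cells in hypoxia (log2 -0.66, SE 0.115, edgeR adjusted p = 0.00145). Csnk2a2, a subunit of casein kinase 2, was lower in FIH-KO cells in normoxia (log2 -0.66, SE 0.116, edgeR adjusted p = 0.00148) and in hypoxia (log2 -0.93, SE 0.117, edgeR adjusted p = 0.000195). Gsk3b, a kinase of several clock proteins, rose with hypoxia in WT cells (log2 0.69, SE 0.104, edgeR adjusted p = 0.000528) and in FIH-KO cells (log2 0.60, SE 0.103, edgeR adjusted p = 0.00233). It was also higher in FIH-KO than in WT cells in normoxia (log2 0.37, SE 0.104, edgeR adjusted p = 0.0193). The medians of this list were between -0.10 and 0.04 in the 4 comparisons.

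Among 11 tested clock output genes, 7 rose with hypoxia in each genotype, with 0 falling in WT and 1 in FIH-KO cells, beside 16.9% of all tested genes higher in WT and 8.84% in FIH-KO cells. Between genotypes 2 were higher and 3 lower in FIH-KO cells in normoxia, and 1 higher and 4 lower in hypoxia, where 28.2% and 28% of all genes were called. Nampt, the rate-limiting enzyme of NAD salvage, rose by 1.51 in WT cells and by 1.82 in FIH-KO cells (log2, SE 0.127 and 0.128, edgeR adjusted p = 1.19e-05 and 3.68e-06). Tsc22d3, the glucocorticoid-induced gene of GILZ, rose with hypoxia in WT cells (log2 2.02, SE 0.181, edgeR adjusted p = 1.7e-05) and was higher in FIH-KO cells in normoxia (log2 1.38, SE 0.182, edgeR adjusted p = 0.000252). It also rose with hypoxia in FIH-KO cells (log2 1.19, SE 0.168, edgeR adjusted p = 0.000724) and was higher in FIH-KO cells in hypoxia (log2 0.55, SE 0.165, edgeR adjusted p = 0.0268). Noct, which encodes nocturnin, was lower in FIH-KO cells in normoxia and in hypoxia (log2 -1.35 and -1.10, SE 0.202 and 0.188, edgeR adjusted p = 0.000543 and 0.00128). So was Klf9, a transcription factor gene (log2 -1.05 and -1.20, SE 0.176 and 0.171, edgeR adjusted p = 0.00112 and 0.000438). Both rose with hypoxia in WT and FIH-KO cells (log2 0.95 and 1.20 for Noct, 0.98 and 0.82 for Klf9, edgeR adjusted p between 0.00121 and 0.00851).

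Per1 and Per2 are also immediate targets of cAMP, growth factor, glucocorticoid and stress signals, and 15 genes of those routes were read. With hypoxia 8 rose and 1 fell in WT cells, and 5 rose and 1 fell in FIH-KO cells, beside 16.9% and 8.84% of all tested genes called higher. Between genotypes 3 were higher and 2 lower in FIH-KO cells in normoxia, and 1 higher and 1 lower in hypoxia, again beside 28.2% and 28% of all genes called. Dusp1, a phosphatase gene of the immediate-early response, was at 3.09 and 3.67 CPM in WT normoxia, 18.5 and 15.9 in WT hypoxia, 9.17 and 12.9 in FIH-KO normoxia, and 19.1 and 19.5 in FIH-KO hypoxia. Like Per2, Dusp1 was lowest in WT normoxia, with log2 differences of 1.70 for FIH-KO against WT cells in normoxia (SE 0.224, edgeR adjusted p = 0.000253) and 2.35 for hypoxia in WT cells (SE 0.222, edgeR adjusted p = 2.52e-05). Unlike Per2, it rose with hypoxia in FIH-KO cells (log2 0.81, SE 0.197, edgeR adjusted p = 0.0164). In hypoxia its genotype difference was not called, also unlike that of Per2 (log2 0.16, SE 0.193, edgeR adjusted p = 0.57). Fos was rare, with 3 and 1 reads in WT normoxia, 29 and 16 in WT hypoxia, 8 and 10 in FIH-KO normoxia and 32 and 21 in FIH-KO hypoxia. Crtc2, a CREB coactivator gene, was lower in FIH-KO cells in normoxia and in hypoxia (log2 -0.59 and -0.85, SE 0.111 and 0.11, edgeR adjusted p = 0.00224 and 0.000224).

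For the 6 clock genes whose group means spanned at least 1 log2 unit, the genes with the most similar profile, at most 2 for each, were named from those that averaged 50 counts or more, by the root mean square (RMS) difference of the centred log2 CPM over the 8 libraries. The profile of Cry1 was matched most closely, by Phf10 at an RMS difference of 0.0658 and Tbc1d31 at 0.121. Per1 was nearest to Nr6a1 (0.0937) and Tsc22d2 (0.0981), and Cry2 to Sel1l (0.103) and Ttc39c (0.117). Per2 was nearest to Smpd3 (0.206) and Mmp28 (0.257). Bhlhe40 was nearest to Bnip3 (0.219) and Ppp1r3b (0.246), and Bhlhe41 to Abhd18 (0.209).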

How the data were processed

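Raw counts per gene of 8 libraries were analysed. The authors prepared stranded mRNA libraries, aligned the reads to GRCm39 with STAR, counted them with HTSeq and deposited these counts without normalization. Their annotation release, strand setting and handling of multiply mapped reads are not given in the sources used here. Groups were taken from the labels. Differences were tested by quasi-likelihood in edgeR 4.0.16 (R 4.3.3), using filterByExpr, TMM normalization, 1 model of all libraries with 4 group means and Benjamini-Hochberg adjustment over all 13933 tested genes in each comparison, at a threshold of 0.05. SE is the absolute log2 fold change divided by the square root of F. The self-test on simulated counts was passed before use. Library totals ran from 14519731 to 18177016, and the common biological coefficient of variation was 11.7%. Positions, exon lengths and sequences came from GENCODE and the GRCm39 genome (pysam 0.24.0, pandas 2.3.3 and Python 3.11.15), and plots from matplotlib 3.10.9.

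The 10 clock genes and the gene lists were chosen with earlier results of these data known. Every one of the 10 is named, and so are the other core loop genes and the genes with the most similar profiles, except for 2 that are not reported here. From each further clock list at most the 3 called genes with the largest change in each comparison were eligible to be named, and Hlf, which was too low to test, is given by its reads. Alternatives were DESeq2 1.42.0, RLE or upper-quartile normalization, no filter beyond 1 read, a minimum of 10 counts per library, fits of a comparison's own 4 libraries, a replicate block, and each library left out in turn, in which case a lone library is assumed to vary like the other groups.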

Additional observations from a re-analysis of the deposited data

How the results depend on the processing

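With 2 libraries per group, calls near the threshold rest on single libraries. Leaving out each library in turn gave between 1 and 5 clock genes called for FIH-KO against WT in normoxia (4 with all libraries; 2 without FIH-KO normoxia replicate 1, and 1, Per2, without FIH-KO normoxia replicate 2, WT normoxia replicate 1 or WT normoxia replicate 2), between 0 and 2 in hypoxia (0 without WT hypoxia replicate 2), between 6 and 8 for hypoxia in WT, between 3 and 5 for hypoxia in FIH-KO (3 without FIH-KO normoxia replicate 1 or either WT normoxia library) and 0 for the difference between genotypes. Calls over all tested genes moved too. They went from 3933 in normoxia to 1893, 3425, 1735 and 2080 without FIH-KO normoxia replicate 1, FIH-KO normoxia replicate 2, WT normoxia replicate 1 and WT normoxia replicate 2, from 3896 in hypoxia to 2380 without WT hypoxia replicate 2, and from 2345 for hypoxia in FIH-KO to 1097, 1730 and 1723 without FIH-KO normoxia replicate 1, WT normoxia replicate 1 and WT normoxia replicate 2. With only the 4 libraries of the comparison the counts of clock genes were 1 for genotype in hypoxia and 3 for hypoxia in FIH-KO cells. All calls then fell from 3896 to 2897 and from 2345 to 1289 in these comparisons and rose from 3933 to 4555 for genotype in normoxia and from 4509 to 5660 for hypoxia in WT. Without a filter on low counts 2 clock genes, and 143 of 25720 genes, were called for the difference between genotypes.

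Signs changed for some values that were not called. For FIH-KO against WT in hypoxia, Bhlhe40 was 0.00661 with DESeq2, 0.00621 with RLE, 0.00828 with upper-quartile normalization, 0.032 without a filter, 0.0123 with at least 10 counts, 0.0134 with the replicate block and 0.0244 with 4 libraries, and Cry2 was 0.011 without a filter and 0.00178 with 4 libraries. Leaving out a library gave log2 ranges that cross 0 in normoxia for Cry1 (-0.071 to 0.0771), Clock (-0.228 to 0.0171), Nr1d2 (-0.103 to 0.488) and Bhlhe40 (-0.38 to 0.102), in hypoxia for Per3 (-0.22 to 0.336), Cry2 (-0.205 to 0.169), Nr1d2 (-0.495 to 0.00671) and Bhlhe40 (-0.23 to 0.306), for hypoxia in WT for Nr1d2 (-0.103 to 0.401), for hypoxia in FIH-KO for Per2 (-0.0939 to 0.558), Nr1d1 (-0.562 to 0.125) and Nr1d2 (-0.585 to 0.00574), and for the difference between genotypes for Clock (-0.233 to 0.0114) and Bhlhe40 (-0.0995 to 0.462).

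The replicate numbers are shared between groups but do not mark a pairing in the labels, and the deviations of same-numbered libraries had correlations between -0.0104 and 0.193 over the 6 pairs of groups. With the replicate block 5 clock genes, and 4080 of all genes against 3933 without it, were called for genotype in normoxia, with Bhlhe41 gained (log2 0.64, edgeR adjusted p = 0.00769), and the block changed no other call of a clock gene.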
